A study of Mus musculus with 13 samples.

Results

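The collagen chains other than those of collagen IV were taken as every gene of the table whose symbol is Col, a number, a and a number, with the Col4a chains left out. This gave 31 chains among 15176 genes. The 31 are 11 fibrillar chains, 7 fibril-associated chains and their relatives, 6 collagen VI chains, 1 short-chain network chain, 2 multiplexins, 3 transmembrane chains and the chain of the anchoring fibril.

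Fibrillar collagens are rods of 3 chains wound into a triple helix that assemble outside the cell into the fibrils that give connective tissue its strength. Collagen I (Col1a1 and Col1a2) is the bulk of these fibrils, collagen III (Col3a1) and collagen V (Col5a1, Col5a2 and Col5a3) assemble with it, and collagens II and XI form the fibrils of cartilage. Collagen VI forms beaded microfibrils around cells, and fibril-associated collagens such as collagen XII lie on the surface of the fibrils. Fibroblasts are a main source of collagens I, III, V, VI and XII, while collagen IV, which is left out here, forms the sheets of basement membranes.

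RNA of 13 mouse libraries was sequenced along a route on which fibroblasts are turned into pluripotent cells with small molecules. Untreated mouse embryonic fibroblasts (MEF, strain C57xICR, 3 libraries) were the start. Cells negative for an Oct4-GFP reporter (GFP-negative, 2 libraries) came from such fibroblasts under the chemical mix coded VC6TF. Clusters and, apart from them, colonies of Oct4-GFP-positive cells, 1 library each, came from the mix coded VC6TF+Z, and all 3 kinds of treated cells were picked from the cultures. Untreated embryonic stem cells of the line R1 (ESC, strain 129, 4 libraries) and 2 pluripotent lines made with chemicals, numbered 6 and 11 (CiPSC, strain C57xICR, mix coded VC6TFMB+Z, 1 library each) grew on feeder layers of MEF whose division had been blocked with mitomycin C. Each CiPSC library is 1 line, so the lines stand for the group. Nothing in the labels says that libraries of a group came from separate cultures, so p-values measure the spread between these libraries only.

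Values are RPKM, reads per kilobase scaled to the reads of the library. In 10 libraries the kilobases were those of the whole gene span, introns included. For both CiPSC lines and for ESC replicate 4 the exons alone were counted, and these 3 libraries are compared only with one another. In all other comparisons ESC stands for replicates 1, 2 and 3. The estimated depth of the 10 gene-span libraries was 8.90 to 17.7 M reads, and the depth of the other 3 is unknown. Fibroblast markers summed to 417 to 476 RPKM in MEF, 228 and 300 RPKM in GFP-negative cells, 184 RPKM in clusters, 56.1 RPKM in colonies and 12.5 to 34.7 RPKM in ESC. The clusters held 0.260 RPKM of Pou5f1, the gene of Oct4, close to the 0.191 and 0.429 RPKM of GFP-negative cells, against 124 RPKM in colonies. In the colonies Nanog was at 0.0418 RPKM, and the markers of extraembryonic endoderm summed to 75.1 RPKM, with all 4 of 4 at their highest of the 10 libraries there. Samples of this kind cannot tell fewer cells of a type from less RNA per cell.

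MEF replicate 3 stood apart from the other 2 MEF libraries in the collagens. It exceeded the mean of MEF replicates 1 and 2 in 27 of 31 chains, by over 5-fold in 15 of them. Some of the 15 are ratios of values near 0, such as Col13a1 at 0.0612 RPKM against 0.000598 and 0 RPKM. How many of all genes were higher in this library was not counted, so these counts do not set the collagens apart from other genes. It also exceeded both in all 6 of 6 macrophage and blood markers, which summed to 210 RPKM there against 20.1 and 31.7 RPKM in replicates 1 and 2. The 4 of 4 chondrocyte markers were likewise highest there among the MEF libraries, at a sum of 10.1 RPKM against 1.10 and 1.19 RPKM. The part of other cells in the collagen values of this library was not tested. Several changes against MEF that rest on it are given with and without it. The spread was pooled over all groups, so this library also enters the SE of comparisons without MEF. Those comparisons were not refitted with it alone left out. The colonies and ESC replicate 3 share with it the way unmeasured genes are written, as 0.001 in place of 0.

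Collagen RNA took up a large part of the fibroblast libraries and little of the stem cell libraries. The 31 chains held 2.71%, 2.56% and 8.29% of the estimated assigned reads in MEF replicates 1, 2 and 3. They held 1.15% and 1.14% in GFP-negative cells, 0.681% in clusters, 0.156% in colonies and 0.0968%, 0.124% and 0.118% in ESC. The share was thus lower at each later stage down to the colonies, which stood just above the 3 ESC libraries. In the heat map of all chains, which shows levels and not shares, the largest falls from MEF to ESC were in fibrillar and collagen VI chains. Col12a1, a fibril-associated chain, also had a large part, with 13904 estimated reads in clusters and 575 in colonies.

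**Figure D1:**
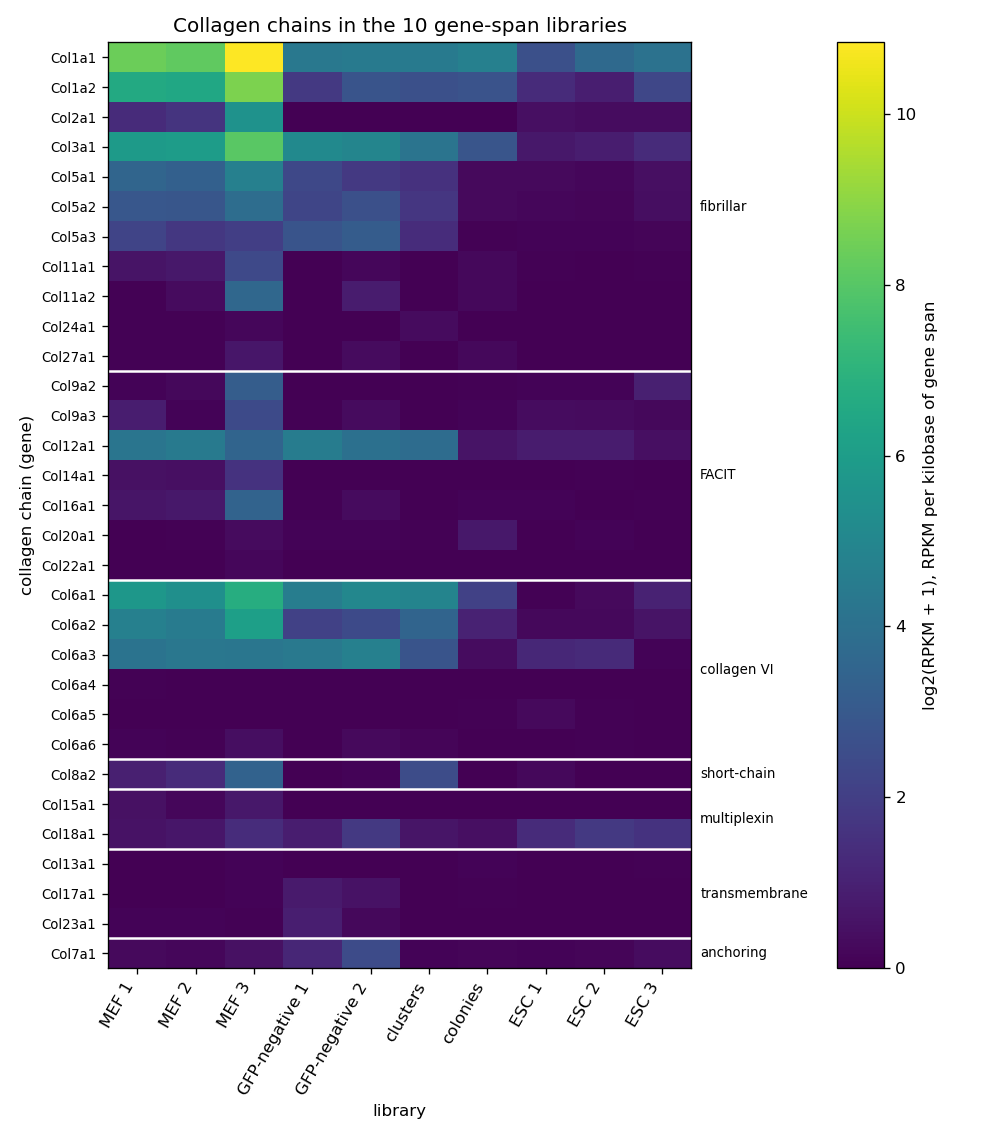
Levels of the 31 collagen chains in the 10 gene-span libraries, as log2(RPKM + 1), with chains in rows grouped by class and libraries in columns by stage. Col1a1 is the brightest row and MEF 3 the brightest column; the clusters still show collagen VI and Col12a1, and the colonies keep mainly Col1a1, Col1a2, Col3a1 and Col6a1.

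Collagen I was the most abundant of these collagens in MEF and was low from the GFP-negative cells on. Col1a1, the chain present in 2 copies of each collagen I molecule, stood at 338, 292 and 1824 RPKM in MEF, 19.0 and 21.0 RPKM in GFP-negative cells, 21.1 RPKM in clusters, 25.6 RPKM in colonies and 5.32, 11.9 and 16.1 RPKM in ESC. All treated and stem cell libraries lay far below all MEF libraries, and the GFP-negative cells, clusters and colonies lay close together. Col1a2, its partner chain, stood at 95.4, 86.9 and 409 RPKM in MEF, 2.48 and 6.04 RPKM in GFP-negative cells, 5.22 RPKM in clusters, 5.86 RPKM in colonies and 1.49, 0.863 and 3.99 RPKM in ESC. Its order of libraries was much like that of Col1a1. In the limma fit with Benjamini-Hochberg adjustment, Col1a1 fell in GFP-negative cells against MEF by 4.75 on the log2(RPKM + 1) scale (SE 0.77, adjusted p = 0.00736). Col1a2 fell by 4.94 (SE 0.71, adjusted p = 0.00414). Without MEF replicate 3 these falls were -3.91 and -4.22, still past the threshold. ESC against GFP-negative cells gave -0.91 (SE 0.77, adjusted p = 0.392) for Col1a1 and -0.80 (SE 0.71, adjusted p = 0.416) for Col1a2, neither of which passed. Both SE include the spread of MEF with replicate 3, so these results do not show that the levels were equal. Per kilobase of exon, Col1a1 was 2.91 to 3.86 times Col1a2 in MEF, 6.66 and 3.02 times in GFP-negative cells, 3.51 times in clusters, 3.78 times in colonies and 3.09, 11.9 and 3.50 times in ESC.

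Col3a1, the single chain of collagen III, did not go with collagen I in the GFP-negative cells. It stood at 59.7, 62.8 and 269 RPKM in MEF, 34.7 and 29.1 RPKM in GFP-negative cells, 16.8 RPKM in clusters, 6.32 RPKM in colonies and 0.609, 0.807 and 1.5 RPKM in ESC. Each later stage was lower than the one before. The GFP-negative cells against MEF gave -1.63 (SE 0.60, adjusted p = 0.129), which did not pass, while ESC against GFP-negative cells fell by 4.08 (SE 0.60, adjusted p = 0.00168, limma). Per kilobase of exon the ratio of Col1a1 to Col3a1 was 3.74, 3.06 and 4.47 in MEF, 0.362 and 0.476 in GFP-negative cells, 0.829 in clusters, 2.67 in colonies and 5.76, 9.70 and 7.08 in ESC. Col3a1 was thus the more abundant RNA of the pair in GFP-negative cells and clusters, and Col1a1 in the other libraries; no test was run on these ratios. The stretches of 200 bases before the RefSeq transcription starts (GRCm38.p6) of Col1a2 and Col3a1 are shown as those of a fibrillar chain that was called lower in GFP-negative cells against MEF and of one that was not. Capitals mark the CCAAT box, the TATAAA box and the GC box GGGCGG on either strand. The Col1a2 stretch is chr6:4505418-4505617 on the plus strand and the Col3a1 stretch is chr1:45311338-45311537 on the plus strand.
Col1a2: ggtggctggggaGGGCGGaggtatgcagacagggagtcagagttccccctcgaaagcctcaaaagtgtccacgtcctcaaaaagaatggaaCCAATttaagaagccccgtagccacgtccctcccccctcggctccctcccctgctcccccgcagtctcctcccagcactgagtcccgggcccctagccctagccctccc
Col3a1: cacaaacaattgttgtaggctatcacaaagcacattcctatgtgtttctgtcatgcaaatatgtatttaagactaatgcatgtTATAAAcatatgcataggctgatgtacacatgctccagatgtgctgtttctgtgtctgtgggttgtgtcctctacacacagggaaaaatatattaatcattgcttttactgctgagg

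The Col1a2 stretch holds 1 GGGCGG and 1 CCAAT, and the Col3a1 stretch holds 1 TATAAA and neither of the others. Of the 32851 promoters in the table, cut to the same 200 bases, 29.35% hold CCAAT, 9.96% TATAAA and 31.05% GGGCGG, on either strand. Of the 26 promoters that matched 24 of the 31 chains, 5 hold CCAAT, 3 TATAAA and 17 GGGCGG, or 65.4% for the last, beside 53.1% of the promoters of all genes in the expression table. The 3 motifs do not share letters in the stretches shown. A match is a description of these letters and not a measured binding site.

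The collagen V chains, which set the width of collagen I fibrils, split by chain. Col5a1 stood at 10.5, 9.09 and 25.6 RPKM in MEF, 4.11 and 2.43 RPKM in GFP-negative cells, 1.88 RPKM in clusters, 0.217 RPKM in colonies and 0.193, 0.158 and 0.371 RPKM in ESC. It fell in GFP-negative cells against MEF by 1.80 (SE 0.40, adjusted p = 0.0269, limma), a call that was lost in 5 of 14 alternatives, leaving out GFP-negative replicate 1 (adjusted p = 0.0550) or 2 (adjusted p = 0.0776) among them. Col5a2, the neighbour of Col3a1 in the genome, stood at 6.73, 6.38 and 13.5 RPKM in MEF, 3.78 and 5.24 RPKM in GFP-negative cells, 2.27 RPKM in clusters, 0.216 RPKM in colonies and 0.152, 0.124 and 0.338 RPKM in ESC. In clusters it was at 34.6% of the mean of MEF replicates 1 and 2, and in colonies at 3.30%. Col5a3, the chain found in only some collagen V molecules, stood at 3.65, 2.39 and 3.01 RPKM in MEF, 5.99 and 7.82 RPKM in GFP-negative cells, 1.56 RPKM in clusters, 0.0354 RPKM in colonies and 0.0701, 0.0770 and 0.104 RPKM in ESC. Both GFP-negative libraries were above all 3 MEF libraries. Its change of 0.98 (SE 0.19, adjusted p = 0.0148, limma) stayed just under the minimum change of 1 that a call needed, and it was called higher at 1.06 after scaling libraries to a common median. In ESC against GFP-negative cells it fell by 2.86 (SE 0.19, adjusted p = 3.38e-05).

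The cartilage-type chains were a feature of MEF replicate 3. Col2a1, the chain of cartilage fibrils, stood at 1.53, 2.10 and 45.4 RPKM in MEF and at 0 in both GFP-negative libraries and the clusters, where 3 reads would have been 0.00933 to 0.0116 RPKM. It stood at 0.0205 RPKM in colonies (6 estimated reads) and 0.367, 0.295 and 0.277 RPKM in ESC. Every MEF library was above every other library, and the spread among MEF was wide. The chain reached 1 RPKM in MEF alone and so passed the filter on low values, 1 RPKM in at least 2 of the 13 libraries, only through that group, and no test is read from its lower levels elsewhere. Its difference from MEF in ESC was -2.44 on the log2(RPKM + 1) scale, and -1.09 without MEF replicate 3. Col11a2, a chain of collagen XI, which nucleates cartilage fibrils, stood at 0.0557, 0.240 and 11.2 RPKM in MEF, 0.00663 and 0.789 RPKM in GFP-negative cells, 0 in clusters, 0.168 RPKM in colonies and 0.00276, 0.00303 and 0.0146 RPKM in ESC. Col9a2, a chain of the collagen IX that decorates cartilage fibrils, stood at 0.0688, 0.163 and 8.2 RPKM in MEF, 0 in GFP-negative cells and clusters, 0.050 RPKM in colonies and 0.0896, 0.0674 and 0.933 RPKM in ESC. Col16a1, a fibril-associated chain, stood at 0.542, 0.635 and 9.87 RPKM in MEF, 0.0369 and 0.245 RPKM in GFP-negative cells, 0.0262 RPKM in clusters, 0.0619 RPKM in colonies and 0.0731, 0.00321 and 0.0524 RPKM in ESC. For these 3 chains only MEF replicate 3 was above 1 RPKM among the 10 gene-span libraries. Col9a3, Col11a1 and Col14a1 were also above 1 RPKM in that library alone, at 4.4, 4.30 and 2.02 RPKM. All 9 of 9 cartilage genes measured outside the collagens, among them Sox9, Acan and Comp, were highest in replicate 3 among the MEF libraries, with a sum of 25.1 RPKM there against 2.97 and 2.42 RPKM in replicates 1 and 2. The 9 include the 4 chondrocyte markers counted above, so the 2 counts are not separate. Sox5 and Sox6 were near 0 even in replicate 3, at 0.0085 and 0.0203 RPKM. How many of all genes were highest in this library was not counted.

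The collagen VI chains, which join as 1 of each into a microfibril unit, separated from one another in the GFP-negative cells. Col6a1 stood at 52.5, 40.6 and 107 RPKM in MEF, 23.4 and 31.2 RPKM in GFP-negative cells, 28.3 RPKM in clusters, 3.30 RPKM in colonies and 0.0562, 0.219 and 1.05 RPKM in ESC. Col6a2, its neighbour in the genome, stood at 25.4, 21.5 and 67.7 RPKM in MEF, 3.27 and 4.46 RPKM in GFP-negative cells, 10.3 RPKM in clusters, 1.05 RPKM in colonies and 0.173, 0.175 and 0.476 RPKM in ESC. Col6a2 was lower in GFP-negative cells than in the clusters, while Col6a1 was at about the same level in both. Col6a3, which carries the longest chain of the 3, stood at 16.5, 18.5 and 18.0 RPKM in MEF, 19.9 and 25 RPKM in GFP-negative cells, 5.94 RPKM in clusters, 0.276 RPKM in colonies and 1.28, 1.43 and 0.0815 RPKM in ESC. Both GFP-negative libraries were above all MEF libraries, and ESC replicate 3 was well below the other 2. In GFP-negative cells against MEF, Col6a2 fell by 2.84 (SE 0.44, adjusted p = 0.00594, limma). Col6a1 gave -1.15 (SE 0.45, adjusted p = 0.146) and Col6a3 gave 0.32 (SE 0.35, adjusted p = 0.608), neither of which passed. Without MEF replicate 3 the fall of Col6a2 was -2.34 (adjusted p = 0.000964), and its call was kept in 13 of 14 alternatives.

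Per kilobase of exon the ratio of Col6a1 to Col6a2 was 2.45, 2.23 and 1.88 in MEF and 8.49 and 8.28 in GFP-negative cells, 3.26 in clusters, 3.71 in colonies and 0.386, 1.48 and 2.62 in ESC. The ratio of Col6a3 to Col6a2 was 1.26, 1.67 and 0.519 in MEF, 11.9 and 10.9 in GFP-negative cells, 1.13 in clusters, 0.511 in colonies and 14.5, 16 and 0.334 in ESC. The GFP-negative libraries lay close to each other and outside the MEF range in both ratios, which were not tested. In ESC all 3 chains fell against GFP-negative cells, Col6a1 by 4.34 (SE 0.45), Col6a2 by 1.93 (SE 0.44) and Col6a3 by 3.68 (SE 0.35), at adjusted p of 0.000295, 0.0115 and 0.000202 in limma. The promoters of Col6a1 and Col6a2 are shown since these neighbouring genes, whose products share a molecule, were at unequal levels in the GFP-negative cells. Both stretches of 200 bases lie before the outermost RefSeq start on the minus strand of GRCm38.p6, Col6a1 at chr10:76726045-76726244 and Col6a2 at chr10:76623631-76623830.
Col6a1: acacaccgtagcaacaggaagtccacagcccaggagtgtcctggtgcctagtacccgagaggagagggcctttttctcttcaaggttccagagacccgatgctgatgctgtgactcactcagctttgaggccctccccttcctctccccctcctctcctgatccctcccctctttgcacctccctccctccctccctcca
Col6a2: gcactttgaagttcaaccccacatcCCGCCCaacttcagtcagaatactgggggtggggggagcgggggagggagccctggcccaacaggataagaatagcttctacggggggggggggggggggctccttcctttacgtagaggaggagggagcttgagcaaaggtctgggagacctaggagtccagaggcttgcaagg

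Col6a1 holds none of the 3 motifs in this stretch and Col6a2 holds 1 GGGCGG, read on the other strand as the capitals CCGCCC. The table holds a second Col6a2 start, whose stretch at chr10:76623405-76623604 is not shown and holds 3 GGGCGG. The remaining collagen VI chains, Col6a4, Col6a5 and Col6a6, which also lie next to one another, never exceeded 0.312 RPKM in the 10 libraries.

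**Figure D2:**
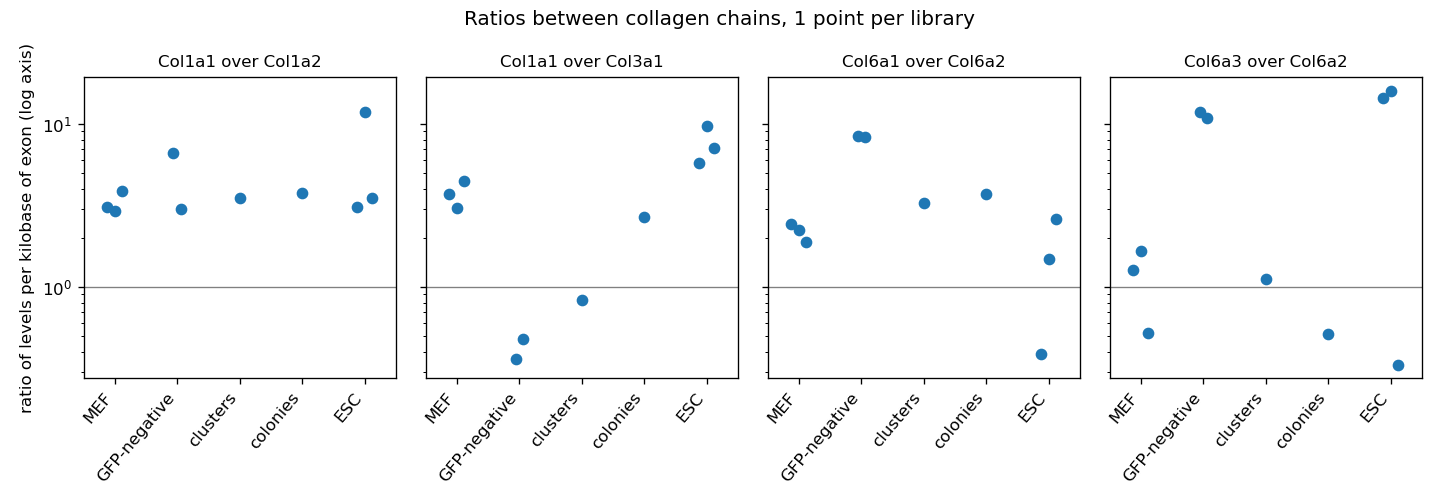
Ratios of Col1a1 to Col1a2, Col1a1 to Col3a1, Col6a1 to Col6a2 and Col6a3 to Col6a2, computed from levels per kilobase of exon, on a log axis with 1 point per library and stages in order. The 2 GFP-negative points lie below 1 for Col1a1 over Col3a1, at 0.362 and 0.476, and above the MEF points for both collagen VI ratios.

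Col12a1, the chain of collagen XII, which links fibrils to their surroundings, stood at 96.4% of the mean of MEF replicates 1 and 2 in GFP-negative cells, 67.0% in clusters and 2.46% in colonies. It stood at 17.8, 21.1 and 10.2 RPKM in MEF, 22.3 and 15.2 RPKM in GFP-negative cells, 13 RPKM in clusters, 0.478 RPKM in colonies and 0.749, 0.782 and 0.349 RPKM in ESC. The MEF, GFP-negative and cluster libraries overlapped, and the colonies and ESC lay below 1 RPKM. GFP-negative cells against MEF gave 0.22 (SE 0.33, adjusted p = 0.729), a direction that turned to -0.07 without MEF replicate 3. ESC against GFP-negative cells fell by 3.59 (SE 0.33, adjusted p = 0.000174, limma).

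Col8a2, a chain of collagen VIII, which builds hexagonal networks under endothelia, was the only one of the chains above 1 RPKM whose highest group mean was that of the clusters, although MEF replicate 3 alone was higher. It stood at 0.925, 1.54 and 9.58 RPKM in MEF, 0.00984 and 0.0773 RPKM in GFP-negative cells, 4.72 RPKM in clusters, 0.0145 RPKM in colonies and 0.158, 0.0150 and 0.0181 RPKM in ESC. The 1157 estimated reads of the clusters gave an exact 95% Poisson interval of 4.45 to 5.0 RPKM, which covers counting error only. Among endothelial markers Kdr was 24.6 RPKM in the clusters and at most 1.15 RPKM in the other 9 libraries. The other 3 of 4 endothelial markers were at most 0.00784 RPKM in the clusters, the level of Cdh5. Their part in the Col8a2 value was not tested. The difference of Col8a2 in ESC from MEF was -1.81 (SE 0.53) on the log2(RPKM + 1) scale. Outside MEF the chain reached 1 RPKM in clusters alone. It thus needed MEF to pass the filter on low values, and no test is read from its lower level in ESC. Its call in the fit was also lost in 6 of 15 alternatives, among them leaving out MEF replicate 2 or any 1 ESC library.

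Col7a1, the chain of the fibrils that anchor skin epithelium, was higher in both GFP-negative libraries than in the other 8 gene-span libraries. It stood at 1.22 and 4.55 RPKM in GFP-negative cells, against 0.199, 0.139 and 0.402 RPKM in MEF. Clusters held 0.0645 RPKM, colonies 0.124 RPKM and ESC 0.0649, 0.108 and 0.30 RPKM. The difference from MEF was 1.5 on the log2(RPKM + 1) scale. The chain passed the filter on low values only through the 2 GFP-negative libraries, so that it had to be higher there, and no test is read from it. Its call in the fit was also lost on leaving out MEF replicate 1 or 2. Col17a1, the transmembrane collagen of the epithelial attachment plaque, stood at 0.724 and 0.453 RPKM in GFP-negative cells, against 0, 0.00123 and 0.0613 RPKM in MEF, and did not reach the filter. The transmembrane chain Col23a1 stood at 0.858 and 0.192 RPKM in GFP-negative cells, against 0.0694, 0.0722 and 0.0597 RPKM in MEF. Keratinocyte markers summed to 8.72 and 17.7 RPKM in GFP-negative cells, against 0.653, 0.665 and 7.97 RPKM in MEF. Their sum was 0.159 RPKM in clusters, 2.78 RPKM in colonies and 6.44, 3.35 and 70.3 RPKM in ESC. Nearly all of the ESC sums was Sfn, at 6.44, 3.33 and 70.2 RPKM. All 4 of 4 markers were higher in both GFP-negative libraries than in MEF replicates 1 and 2. In GFP-negative cells Krt5 stood at 6.34 and 4.79 RPKM, Krt14 at 1.07 and 11.3 RPKM, Sfn at 1.29 and 1.68 RPKM and Trp63 at 0.0199 and 0.0112 RPKM. In MEF replicate 3 they stood at 2.11, 2.89, 2.97 and 0.00748 RPKM, in the same order. Sfn was thus higher there than in both GFP-negative libraries, and Krt14 lay between them. The part of such cells in the Col7a1 level was not tested.

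Col18a1, a multiplexin of basement membranes and the precursor of endostatin, was the only one of the chains at 1 RPKM or more whose highest gene-span group was ESC. It stood at 0.461, 0.578 and 1.61 RPKM in MEF, 0.800 and 2.49 RPKM in GFP-negative cells, 0.541 RPKM in clusters, 0.364 RPKM in colonies and 1.49, 2.45 and 2.03 RPKM in ESC. The ESC range overlapped both the MEF and the GFP-negative range. ESC against MEF gave 0.70 (SE 0.32, adjusted p = 0.145), which did not pass. The span of Col18a1 overlaps that of Slc19a1 on the opposite strand by 8825 bases, 359 of them Slc19a1 exon, and strand handling is not given in the sources used here. Slc19a1 stood at 3.63, 5.68 and 4.24 RPKM in ESC and 2.52 and 8.16 RPKM in GFP-negative cells, against 2.51, 2.44 and 4.02 RPKM in MEF. The GFP-negative library with 8.16 RPKM is also the one with the highest Col18a1 level, 2.49 RPKM. Reads of the 2 genes may be mixed in these values.

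The other chains were low throughout. Of the 31 chains, 11 never reached 1 RPKM in the 10 gene-span libraries, and 6 reached it in MEF replicate 3 alone. Col15a1, the other multiplexin, was at most 0.618 RPKM, in MEF replicate 3. Among the low chains Col20a1, a fibril-associated chain, stood out in the colonies at 0.629 RPKM, with a 95% Poisson interval of 0.546 to 0.723 RPKM, against at most 0.251 RPKM elsewhere. Col24a1, a minor fibrillar chain, was highest in the clusters at 0.241 RPKM, with an interval of 0.221 to 0.261 RPKM. Col13a1, Col22a1 and Col27a1 stayed at or under 0.596 RPKM in all 10 libraries. Col20a1 and Col24a1 were picked here after their values were seen.

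Across the tests, 15 of the 31 chains passed the filter of 1 RPKM in at least 2 of the 13 libraries. A chain could pass it through 1 group alone, as Col2a1 did through MEF and Col7a1 through GFP-negative cells. Col8a2, which reached 1 RPKM outside MEF in clusters alone, also needed MEF to pass. The counts of calls below therefore describe the chains and do not support a direction. A call needed an adjusted p under 0.05 and a change of at least 1 on the log2(RPKM + 1) scale. In ESC against MEF, 11 of the 15 were called lower, where 7.97% of 10647 genes were, and 0 were called higher, where 7.95% of genes were. At an unadjusted p under 0.05 the count higher was also 0. Shares of all genes at an unadjusted p were not counted for any comparison. The median change was -3.36 over the 15 chains and 0.14 over all genes tested. The 11 were Col1a1 (-5.66 ± 0.69, SE), Col1a2 (-5.73 ± 0.64), Col3a1 (-5.71 ± 0.54), Col5a1 (-3.56 ± 0.36), Col5a2 (-2.97 ± 0.28), Col5a3 (-1.88 ± 0.17), Col6a1 (-5.49 ± 0.40), Col6a2 (-4.77 ± 0.39), Col6a3 (-3.36 ± 0.31), Col12a1 (-3.37 ± 0.30) and Col8a2. Without MEF replicate 3 the changes of Col1a1, Col1a2, Col3a1, Col5a1, Col6a2 and Col8a2 were smaller, at -4.82, -5.01, -5.01, -3.12, -4.27 and -1.06, all still called. All 9 of 9 fibroblast markers were lower in every ESC library than in every MEF library, a count not set beside a share over all genes.

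In GFP-negative cells against MEF, 4 of the 15 chains were called lower (Col1a1, Col1a2, Col5a1 and Col6a2), where 4.09% of genes were, and Col7a1 alone was called higher, where 3.53% of genes were. The median change was -1.17 over the chains and -0.13 over all genes. The fibroblast markers did not move together here: 3 of 9 were lower in both GFP-negative libraries than in every MEF library and 3 of 9 were higher. Shares over all genes were not counted for this split. Twist1, a transcription factor of mesenchyme, stood at 59.6 and 82.0 RPKM in GFP-negative cells, against 33.4, 19.5 and 34.4 RPKM in MEF, while Postn, a matrix protein that binds collagen I, stood at 5.19 and 2.98 RPKM, against 37.4, 45.3 and 55.3 RPKM. In ESC against GFP-negative cells, 9 of the 15 chains were called lower, where 8.35% of genes were, and 0 were called higher, where 14.3% of genes were, also 0 at an unadjusted p under 0.05. The 9 were Col3a1, Col5a1, Col5a2, Col5a3, Col6a1, Col6a2, Col6a3, Col12a1 and Col7a1, of which Col7a1 had to be lower since it passed the filter through GFP-negative cells alone. Of these, Col5a2 fell by 2.18 (SE 0.31, adjusted p = 0.0014) and Col5a1 by 1.76 (SE 0.40, adjusted p = 0.0114), the Col5a1 call being lost without GFP-negative replicate 1 (adjusted p = 0.0689). The median change was -1.76 over the chains and 0.25 over all genes. These 3 comparisons share libraries with one another, and no agreement between them is read as a result.

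The stage at which each chain was lost was taken as the first stage whose mean was under 25% of the MEF mean, among the 17 chains at 1 RPKM or more in that mean. By this description 12 of 17 chains were first under 25% in GFP-negative cells, where 18.4% of 6138 genes were. In clusters it was 0 of 17, where 23.0% of genes were. In colonies it was 5 of 17, where 5.21% of genes were, namely Col5a2, Col5a3, Col6a1, Col6a3 and Col12a1. In ESC it was 0 of 17, where 3.83% of genes were, a count fixed in advance since all 17 had been under 25% at an earlier stage. All 17 were under 25% in colonies and in ESC, where 12.4% and 16.1% of genes were. Col6a2 and Col8a2 were under 25% in GFP-negative cells and back above it in the clusters.

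MEF replicate 3 decided much of this description. Without it 12 chains were at 1 RPKM or more in MEF, and 5 of them were first under 25% in GFP-negative cells, where 13.6% of genes were. These were Col1a1, Col1a2, Col2a1, Col6a2 and Col8a2. Col5a1 was then first under 25% in clusters, where 22.3% of genes were. The other 6, Col3a1, Col5a2, Col5a3, Col6a1, Col6a3 and Col12a1, were first under 25% in colonies, where 6.17% of genes were. In ESC it was 0 of 12, where 4.01% of genes were, again fixed in advance since all 12 had been under 25% earlier. Against the mean of MEF replicates 1 and 2, Col3a1 stood at 52.1% in GFP-negative cells, 27.4% in clusters, 10.3% in colonies and 1.59% in ESC. Col1a1 stood at 6.36%, 6.71%, 8.12% and 3.52% of that mean at the same 4 stages. The plot of these shares by stage shows an early group that is low in GFP-negative cells and a late group that drops between clusters and colonies.

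**Figure D3:**
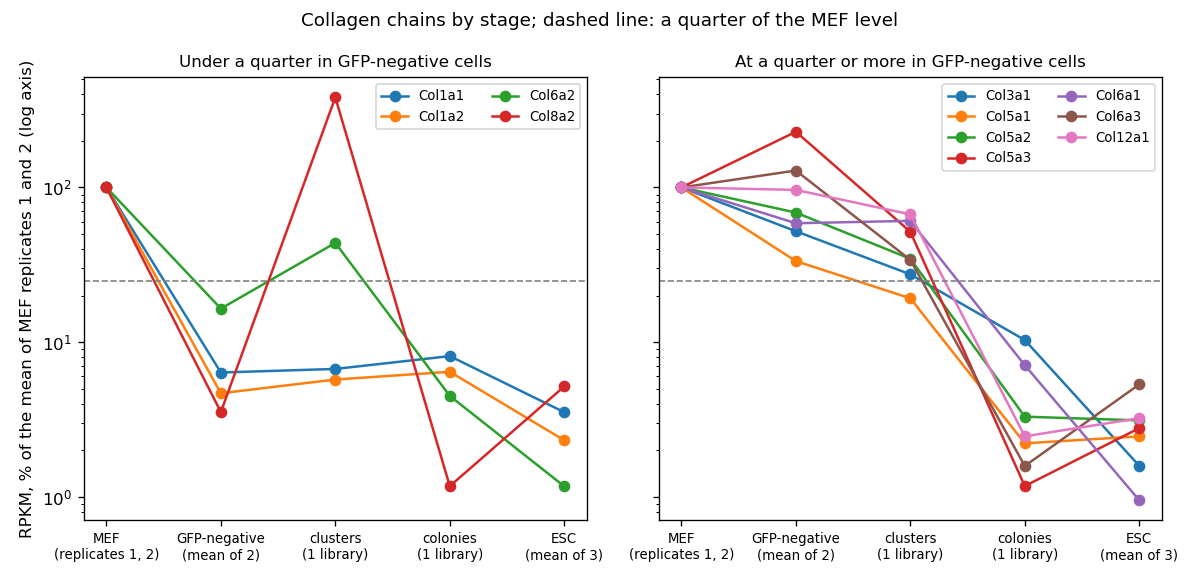
Mean RPKM at each stage as a percentage of the mean of MEF replicates 1 and 2, on a log axis, for the 11 chains other than Col2a1 that were at 1 RPKM or more in those libraries; the dashed line marks 25%. Left, 4 chains under the line in GFP-negative cells, of which Col6a2 and Col8a2 are above it again in clusters; right, 7 chains above the line in GFP-negative cells, all below it in colonies. Clusters and colonies are single libraries that also differ in how unmeasured genes are written.

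The step between clusters and colonies rests on 1 library each and has no replicate check. Unmeasured genes are written as 0 in the clusters and as 0.001 in the colonies, the latter as in MEF replicate 3. The step coincides with that difference between the libraries, whose part was not tested. Of 11 chains at 1 RPKM or more in clusters, 8 were under 25% of that level in colonies, where 25.3% of 4691 genes were. Col12a1 in the colonies was at 3.67% of the clusters, Col6a3 at 4.65%, Col5a3 at 2.27% and Col8a2 at 0.307%. Col6a1, Col6a2, Col5a1 and Col5a2 were at 11.7%, 10.2%, 11.5% and 9.54%. Col3a1 was at 37.6%. Collagen I did not share this step, with Col1a1 at 121% and Col1a2 at 112% of the clusters. Counting error is small beside these differences, with a 95% Poisson interval for Col6a1 of 3.04 to 3.58 RPKM in colonies and 27.4 to 29.1 RPKM in clusters. The fibroblast markers summed to 56.1 RPKM in colonies and 184 RPKM in clusters, and their part in these values was not tested. Collagen IV, the basement membrane collagen left out of the chain list, was higher in colonies, with Col4a1 at 95.5 RPKM in colonies and 4.13 RPKM in clusters.

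Genes that make, process or bind collagen were read beside the chains, from lists written by role. Modification and folding genes put hydroxyl groups and sugars on the chains and help the triple helix fold in the endoplasmic reticulum. In ESC against MEF, 12 of 17 tested were called lower, where 7.97% of all genes were, and 0 higher, where 7.95% were, with a median change of -1.35 beside 0.14 over all genes. In GFP-negative cells against MEF 5 of 17 were lower, where 4.09% of all genes were, and in ESC against GFP-negative cells 5 of 17, where 8.35% were. Among those called lower against MEF, P4ha3 reached 1 RPKM outside MEF only in clusters and Leprel2 only in colonies. Both needed MEF to pass the filter, so no direction is read from them. Serpinh1, the chaperone dedicated to procollagen, stood at 171, 143 and 371 RPKM in MEF, 27.4 and 35.7 RPKM in GFP-negative cells, 17.5 RPKM in clusters, 478 RPKM in colonies and 4.38, 6.61 and 14.5 RPKM in ESC. The colonies were thus the highest library for this chaperone while being low for fibrillar collagen. P4ha2, a prolyl hydroxylase, stood at 34.4 RPKM in colonies, with at most 4.61 RPKM elsewhere in the 10 libraries. P4hb, the other subunit of that enzyme, stood at 172 RPKM in colonies, with at most 86.6 RPKM elsewhere. Of the 19 genes of this list in the table, 12 were highest in the colonies among the 10 libraries, where 14.4% of 15175 genes were. The colonies have 1 library and no replicate check.

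Genes that trim and crosslink collagen after its export formed the next list. Of 9 tested, 8 were called lower in ESC against MEF (7.97% of all genes), 2 in GFP-negative cells against MEF (4.09%) and 4 in ESC against GFP-negative cells (8.35%). Loxl4, called lower in ESC against MEF, reached 1 RPKM in MEF alone. It passed the filter only through that group, so no direction is read from it. Adamts2, called lower in ESC against MEF and against GFP-negative cells, reached 1 RPKM only in MEF replicate 3 and GFP-negative replicate 2. It needed these groups to pass the filter, so no direction is read from it either. Of the 12 listed genes 0 were highest in the colonies among the 10 libraries, where 14.4% of 15175 genes were. A count of 0 among 12 is not far from that share, so no contrast with the folding genes is read from it. Lox, the main crosslinking enzyme, stood at 382, 410 and 142 RPKM in MEF, 27.0 and 12.5 RPKM in GFP-negative cells, 13.7 RPKM in clusters, 3.75 RPKM in colonies and 8.47, 9.48 and 5.15 RPKM in ESC. It fell in GFP-negative cells against MEF by 3.86 (SE 0.53, adjusted p = 0.00331, limma). Lox was thus, like Col1a1, low in all libraries after MEF. Loxl2, a related enzyme that also acts on collagen IV, stood at 5.74 and 6.42 RPKM in GFP-negative cells, against 4.17, 4.8 and 3.99 RPKM in MEF, and was 8.67 RPKM in clusters. It fell in ESC against GFP-negative cells by 2.10 (SE 0.20, adjusted p = 0.000206).

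Among 8 tested partners of the fibril, 7 were called lower in ESC against MEF (7.97% of all genes), 4 in GFP-negative cells against MEF (4.09%) and 4 in ESC against GFP-negative cells (8.35%). Ogn and Aspn, called lower in both comparisons against MEF, reached 1 RPKM in MEF alone. They passed the filter only through that group, so no direction is read from them. Bgn, a proteoglycan bound to collagen I, fell in GFP-negative cells against MEF by 3.15 (SE 0.25, adjusted p = 0.000205, limma). Fn1, the fibronectin on which collagen I assembles, stood at 55.0 and 71.3 RPKM in GFP-negative cells, against 56.7, 60.1 and 68.6 RPKM in MEF (change 0.02, SE 0.27, adjusted p = 0.981). Sparc, a collagen-binding glycoprotein that basement membranes also hold, was at 697 RPKM in colonies, with at most 230 RPKM elsewhere in the 10 libraries. Of 4 tested receptors, 4 were called lower in ESC against MEF (7.97% of all genes), 0 in GFP-negative cells against MEF (4.09%), also 0 at an unadjusted p under 0.05, and 2 in ESC against GFP-negative cells (8.35%). Mrc2, called lower in ESC against MEF, reached 1 RPKM outside MEF only in GFP-negative replicate 2. This receptor needed MEF to pass the filter, so no direction is read from it. Ddr2, a receptor kinase for fibrillar collagen, stood at 4.46 and 2.81 RPKM in GFP-negative cells, against 3.11, 2.95 and 2.24 RPKM in MEF. Of 8 tested genes of procollagen export, the path that carries large procollagens to the cell surface, 0 were called in any comparison. Over the comparisons 0.0376% to 8.35% of all genes were called lower and 0.122% to 14.3% higher, so 0 of 8 is not far from these shares. At an unadjusted p under 0.05, 4 of the 8 were lower and 1 higher in ESC against MEF, and 1 lower and 0 higher in GFP-negative cells against MEF. In ESC against GFP-negative cells 2 were lower and 1 higher, and in CiPSC 0 either way. Over all 46 genes tested in these 5 lists, 0 were called higher in any of the 4 comparisons. Of all genes 7.95% were in ESC against MEF, 3.53% in GFP-negative cells against MEF, 14.3% in ESC against GFP-negative cells and 0.122% in CiPSC against ESC replicate 4. Beside 3.53% and 0.122%, a count of 0 among 46 says little about these genes. At an unadjusted p under 0.05 the counts higher were 1, 0, 1 and 0 in the same order. Shares of all genes at that p were not counted, so the unadjusted counts describe these genes only.

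**Figure D4:**
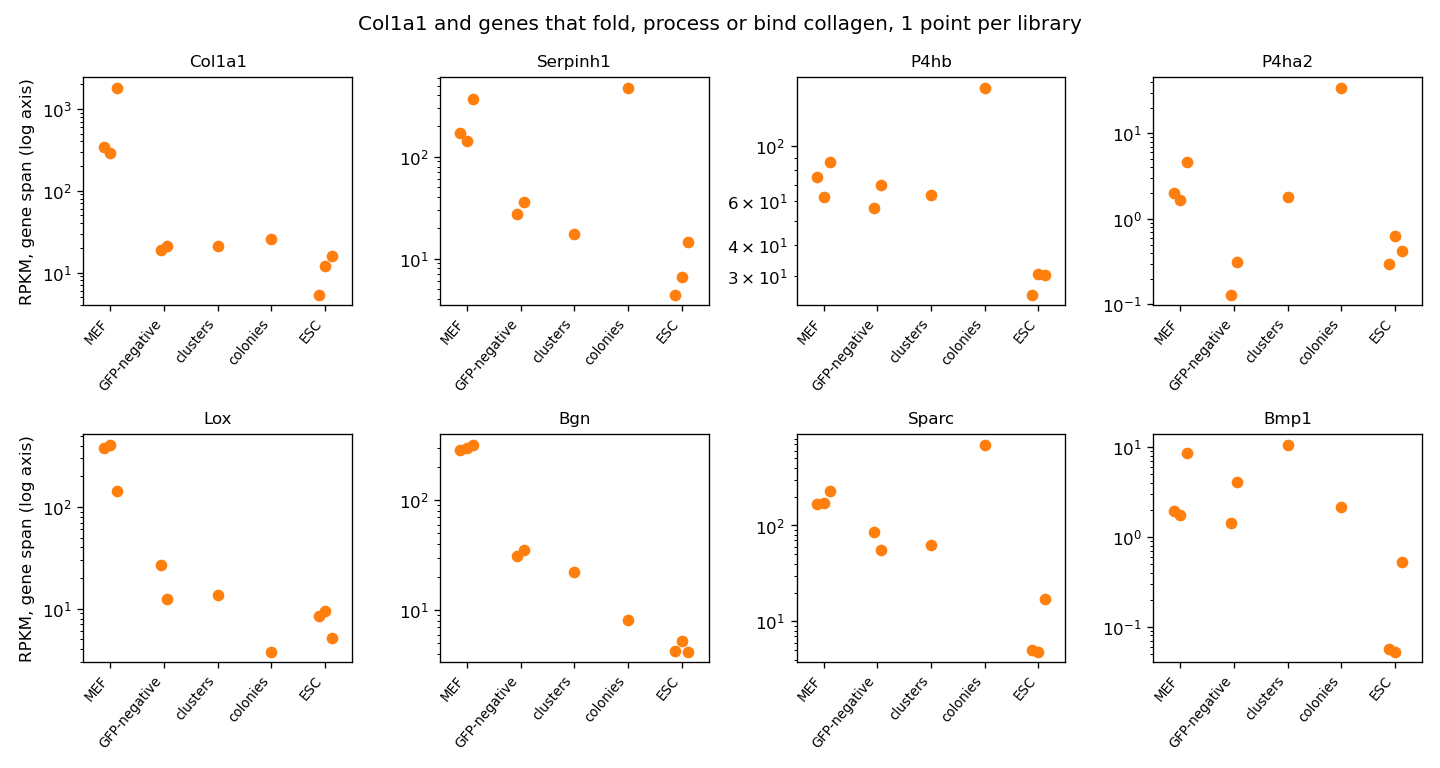
RPKM per kilobase of gene span of Col1a1 and of 7 genes that fold (Serpinh1, P4hb, P4ha2), crosslink (Lox), bind (Bgn, Sparc) or trim (Bmp1) collagen, on log axes with 1 point per library and stages in order. Col1a1, Lox and Bgn are highest in MEF; Serpinh1, P4hb, P4ha2 and Sparc are highest in the single colony library, and Bmp1 in the single cluster library.

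The finished CiPSC lines were compared with ESC replicate 4, the 1 stem cell library on the same exon scale. The comparison asks whether the induced lines hold more or less collagen RNA than an embryonic stem cell line. Of 15 chains 0 were called in limma, lower or higher, where 0.0376% of genes were called lower and 0.122% higher. At an unadjusted p under 0.05, 3 chains were lower and 0 higher. The share of all genes at that p was not counted, so no direction is read from these 3. The median change was -0.27 over the chains and 0.02 over all genes. Since ESC had 1 library here, its spread was taken from the other groups, MEF with replicate 3 among them.

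Col18a1 was the most abundant chain in all 3 libraries, at 12.7 and 12.8 RPKM in CiPSC lines 6 and 11, against 14.1 RPKM in ESC replicate 4. Col9a2 stood at 1.55 and 1.12 RPKM in CiPSC, against 2.36 RPKM in ESC replicate 4. These were the only chains at 1 RPKM or more in the CiPSC lines, against 7 such chains in ESC replicate 4. Col1a1 stood at 0.717 and 0.183 RPKM in CiPSC, against 6.58 RPKM in ESC replicate 4 (change -2.41, SE 1.04, adjusted p = 1.0). Col1a2 stood at 0.285 and 0.0246 RPKM in CiPSC, against 1.91 RPKM. Col12a1 stood at 0.0336 and 0.0119 RPKM in CiPSC, against 1.62 RPKM (change -1.36, SE 0.44, adjusted p = 0.612). These 3 fibroblast chains were lower in both lines than in the stem cell library without passing the adjusted test. Col5a2 stood at 0.141 and 0.0400 RPKM in CiPSC, against 1.79 RPKM (change -1.36, SE 0.42, adjusted p = 0.505). Col5a1 stood at 0.618 and 0.546 RPKM in CiPSC, against 1.20 RPKM in ESC replicate 4.

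Other fibroblast genes lay the same way in these 3 libraries. Of 9 fibroblast markers, 8 were lower in both CiPSC lines than in ESC replicate 4, with sums of 43.3 and 49.5 RPKM in CiPSC and 96.0 RPKM in ESC replicate 4. Most of each sum was Vim, at 41.6 and 48.0 RPKM in CiPSC and 89.3 RPKM in ESC replicate 4. How many of all genes lay this way was not counted, so the count describes these markers only. Lox stood at 0.0977 and 0.0160 RPKM in CiPSC, against 3.62 RPKM, and Postn at 0.00606 and 0.00357 RPKM, against 0.984 RPKM. Both kinds of cells grew on MEF feeders, and the part of feeder RNA in these values was not tested.

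**Figure D5:**
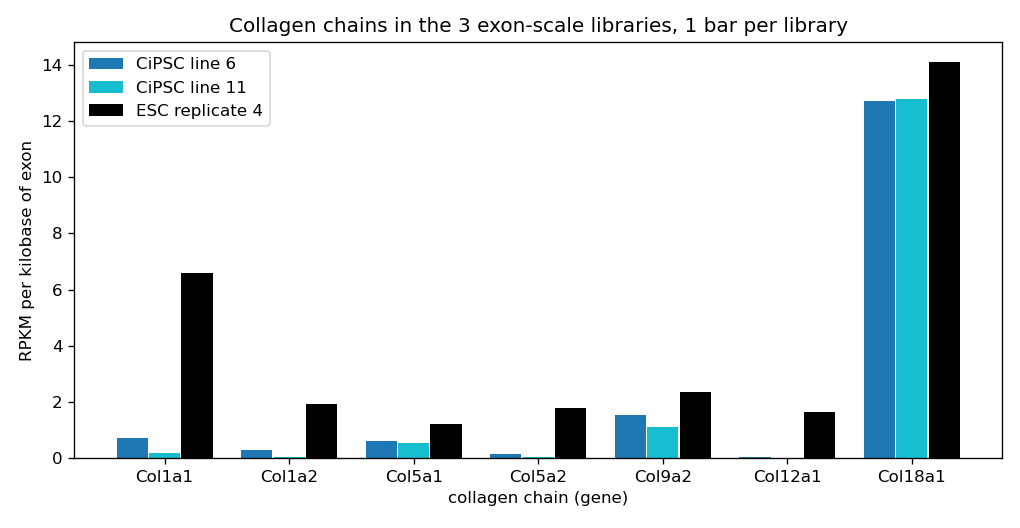
RPKM per kilobase of exon of the 7 chains at 1 RPKM or more in at least 1 of the 3 exon-scale libraries, with 1 bar per library for CiPSC line 6, CiPSC line 11 and ESC replicate 4. Col18a1 is at 12.7 to 14.1 RPKM in all 3, while Col1a1, Col1a2, Col5a2 and Col12a1 are taller in ESC replicate 4.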

How the data were processed

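The authors had summarised 13 RNA-seq libraries as RPKM per gene, per the file headers, in 1 deposited table. The submitters' processing notes name TopHat 1.3.0 as a tool and mm9 as a build. How reads were counted, over which gene models, and with what use of strand is not given in the sources used here. Of 15184 rows, 8 that shared 1 identifier were left out. The length scale was found from the values: with gene spans from the GRCm38 annotation (99.0% of genes), 82.5% to 84.4% of low values in 10 libraries came out as whole reads at a tolerance of 0.05 reads. That step gave the depths and read estimates. The other 3 libraries gave 2.94 to 2.98 assigned reads per sequenced read with spans, more than reads counted once could give, and were taken as per kilobase of exon. No depth could be had for them. Poisson intervals and floors of 3 reads cover counting error only.

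Values were tested as log2(RPKM + 1) in limma 3.58.1 (R 4.3.3), with 1 mean per group, ESC replicate 4 as a group of its own, all 13 libraries in the fit (6 residual degrees of freedom, prior 2.58), a mean-dependent prior variance and Benjamini-Hochberg adjustment over 10647 genes. These reached 1 RPKM in 2 or more libraries. No further scaling was applied. The log2 scale with a pseudocount of 1 understates changes of low genes. The fit was tested on simulated data. Levels were put per kilobase of exon with the same annotation for ratios between genes.

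Libraries were grouped by their labels. All 31 chains are accounted for. Given in every gene-span library are the 16 with the highest mean over these, any chain at 1 RPKM or more whose highest group was clusters, colonies or ESC, and any chain called higher. In the partner lists, up to 6 tested members per comparison with the smallest p could be named; the colony values of P4ha2, P4hb and Sparc, and Krt5, Krt14, Kdr and the other genes quoted beside a result, were chosen after their values were seen. The members and all lists were chosen with earlier results of these data known. Alternatives varied the pseudocount, the filter, the scaling, the minimum change, the libraries in the fit and the replicate block. Each library of the groups compared, ESC replicate 4 apart, was also left out in turn.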

Additional observations from a re-analysis of the deposited data

How the results depend on the processing

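Of the 11 chains called lower in ESC against MEF, 10 kept the call in all 15 alternatives, and Col8a2 lost it in 6. In GFP-negative cells against MEF Col1a1 and Col1a2 kept the call in all 14, and in ESC against GFP-negative cells 7 of 9 did. Leaving out 1 library at a time gave 10 to 12 chains lower in ESC against MEF, 3 to 6 lower and 0 to 1 higher in GFP-negative cells against MEF, and 7 to 9 lower in ESC against GFP-negative cells. The count higher in GFP-negative cells was 2 with no minimum change, after median scaling and after quantile normalization, each time adding Col5a3, and 0 with only the libraries that hold exact 0. For chains below every call, signs turned in ESC against GFP-negative cells: Col18a1 gave -0.0585 and Col8a2 -0.0753 after quantile normalization, Col2a1 -0.27, Col8a2 -0.34 and Col9a2 -0.26 with a term for the libraries that hold 0.001 (chosen after seeing the data, and with which Col1a1 at -1.49 and Col1a2 at -1.36 were also called lower), and, leaving out 1 library at a time, Col18a1 ranged between -0.238 (without GFP-negative replicate 1) and 0.719, and Col8a2 between -0.0371 (without ESC replicate 1) and 0.0724. In ESC against MEF, Col9a2 ranged between -1.32 and 0.233 (without MEF replicate 3) in the same way. In GFP-negative cells against MEF, Col12a1 gave -0.0692 with only the exact-0 libraries and ranged between -0.0692 (without MEF replicate 3) and 0.480 with 1 library left out, and Col18a1 between -0.0162 (without GFP-negative replicate 2) and 0.941. The causes were not tested. Quantile normalization moved the median of all genes in ESC against GFP-negative cells to 0.03, against 0.25 in the values as deposited, and in GFP-negative cells against MEF to 0.01, against -0.13.

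Replicate numbers are shared by MEF, GFP-negative and ESC libraries 1 and 2. Deviations of same-numbered libraries correlated at r = -0.04, -0.07 and 0.08, so the numbers were not taken to pair them. With the replicate block on libraries 1 and 2, 2 chains were called lower in GFP-negative cells against MEF (Col1a1 and Col1a2) and 0 higher, Col6a2 missing at adjusted p = 0.0600, Col12a1 gave -0.0692, and in ESC against GFP-negative cells Col7a1 missed at adjusted p = 0.0511.

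For the stage of loss, chains first under the line in clusters and in colonies numbered 2 and 2 with the line at 50%, and those in clusters 1 with the line at 12.5%, without any 1 MEF library or after median scaling. Chains first under it in GFP-negative cells numbered 5 (without MEF replicate 3) to 13 with 1 MEF library left out and 6 among chains at 5 RPKM or more in MEF. Depth limits what a 0 can show: in the clusters 3 reads of Col2a1 would have been 0.0116 RPKM.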
